A study of Mus musculus with 45 samples.

Results

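The cytosolic ribosomal proteins are the protein components of the ribosomes that translate nuclear-encoded mRNA. Their genes were followed in bone marrow-derived macrophages (BMDMs) of mice carrying human variants of *Famin* (*Lacc1*). Every symbol of the authors' table of CPM (reads scaled to a common library total) that is Rpl or Rps followed by a number, with an optional a, l or x, was taken, together with *Rplp0*, *Rplp1*, *Rplp2* and *Rpsa*. This gave 71 of 11900 genes, 42 of the large and 29 of the small subunit. All 71 were among the 12905 genes tested on the counts.

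The 45 libraries came from 15 C57BL/6N mice aged 6 to 10 weeks, 5 each of *Famin* p.254I (the human non-risk form), *Famin* p.254V (a risk form) and *Famin* p.284R (a form causing monogenic disease). All 3 are engineered alleles, and p.254I served as the reference. BMDMs grown for 6 days with M-CSF were left unstimulated (M0) or polarized with IFN-γ and LPS (M1) or with IL-4 (M2), and each mouse gave 1 library of each. Libraries held 17239009 to 43740283 counts. All 8 macrophage markers tested were expressed, with a summed level of 20040 to 33460 CPM in M0, 11290 to 15150 in M1 and 9635 to 13880 in M2. In M1 against M0, *Cd14*, *Lyz2*, *Cd68*, *Csf1r*, *Itgam* and *Adgre1* were called lower. *Fcgr1* was called higher there (log2 fold change 1.60) and *Mertk* was not called. Of the M1 markers tested, 4 of 4 were called higher in M1 than in M0, and of the M2 markers 4 of 4 were called higher in M2. The M2 marker *Arg1* was also called higher in M1 (log2 fold change 2.20), with a median of 0.653 CPM and a highest library of 40.8. *Mrc1* was called lower there, and *Chil3* and *Retnla* were not called. The highest M1 library of *Retnla* was at 49.1 CPM (median 0.0396). The M1 marker *Nos2* was called higher in M2 than in M0 (log2 fold change 3.285), at a median of 0.242 CPM in M2. *Cxcl10* was called lower in M2 (-5.46), and *Cxcl9* and *Irf1* were not called there. The 5 markers of dividing cells (*Mki67*, *Top2a*, *Ccna2*, *Cdk1*, *Ccnb1*) were called lower in both, and their median log2 fold change was -0.66 for M1 and -1.28 for M2. Their summed level spanned 193 to 422 CPM in M0, 97.6 to 359 in M1 and 78.5 to 205 in M2. Neutrophil markers were called lower for 3 of 6 genes in M1 and 4 of 6 in M2, with summed levels of 26.1 to 281 CPM in M0, 40.9 to 135 in M1 and 16.1 to 73.1 in M2. The 2 fibroblast markers tested were lower in both, with sums of 15.5 to 83.5, 5.94 to 19.1 and 8.60 to 29.5 CPM. Of the 2 dendritic cell markers tested, *Xcr1* was higher in M1 (log2 fold change 8.23) and *Zbtb46* was lower in M1 (-0.98) and higher in M2 (3.68). The summed level of that list was 0.352 to 1.35 CPM in M0, 4.96 to 11.02 in M1 and 3.83 to 12.7 in M2. Erythroid markers summed to at most 0.0426 CPM in any library. The part of these cells in the results was not tested.

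Ribosomal proteins coat and stabilize the rRNA core of the ribosome, and as a rule each subunit holds a single copy of each. Their synthesis is tied to growth. Myc and mTORC1 raise ribosome production, and the mRNAs begin with a 5′ terminal oligopyrimidine (TOP) tract, through which LARP1 and mTORC1 set how well they are translated. Nearly every ribosomal protein gene has left many processed pseudogenes in mammalian genomes, intronless copies made from its mRNA.

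Short sequences show both features. The first set shows starts of transcription, with 15 bases before the annotated start and 15 from it onward, on the gene's strand. Capitals mark the pyrimidine run that begins at the start. RefSeq windows of GRCm38.p6 matched 53 of the 71 genes. *Rps6*, *Rps10*, *Rps18* and *Rpl15* are shown for their TOP-like starts, and *Rpl10a*, *Rpl12* and *Rpl31* because they departed most from the other ribosomal proteins in M1.
*Rps6*, chr4:86857353-86857382, minus strand: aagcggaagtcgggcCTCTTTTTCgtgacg
*Rps10*, chr17:27635230-27635259, minus strand: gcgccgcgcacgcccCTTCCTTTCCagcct
*Rps18*, chr17:33955651-33955680, minus strand: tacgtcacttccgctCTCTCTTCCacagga
*Rpl15*, chr14:18270972-18271001, minus strand: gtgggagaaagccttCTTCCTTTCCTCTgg
*Rpl10a*, chr17:28328456-28328485, plus strand: gtggcgcccccccagCggccgcaaactgca
*Rpl12*, chr2:32961697-32961726, plus strand: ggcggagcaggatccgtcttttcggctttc
*Rpl31*, chr1:39367836-39367865, plus strand: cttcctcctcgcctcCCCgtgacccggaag

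A C at the annotated start followed by at least 4 more pyrimidines was found in 12 of 63 windows of these genes (19.0%) and in 823 of 32851 windows of all genes (2.5%). Annotated starts can be off by some bases, and *Rpl12* has a pyrimidine run just inside its start. Within the whole windows of 250 bases before to 50 after the start, CCGGAA on either strand was present in 49.2% of the windows of these genes and 14.9% of all. GCGGAA was present in 42.9% against 11.2%, and TATAAA in 9.5% against 13.6%. These are matches of letters, not binding sites.

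The second set shows why reads of some of these genes are hard to place. Each sequence is a stretch of 80 coding bases within 1 exon, from GENCODE M21 on the same assembly (mm10), and capitals mark a 50-base word, the length of a read in this series. The word shown is the one found in the most other annotated genes. The *Rps6* word was found identically in 9 other annotated genes, and the *Rpl10a* word in 3.
*Rps6*, chr4:86854759-86854838, exon 5, minus strand: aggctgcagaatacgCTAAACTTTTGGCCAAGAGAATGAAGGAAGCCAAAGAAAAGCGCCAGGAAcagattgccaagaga
*Rpl10a*, chr17:28330539-28330618, exon 5, plus strand: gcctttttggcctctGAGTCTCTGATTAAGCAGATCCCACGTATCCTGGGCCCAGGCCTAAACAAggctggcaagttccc

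Together the 71 genes took a small share of the counts, with a wide spread between genes. Per kilobase of mRNA, levels among the highest in M0 (TMM-scaled CPM per kb) were those of the stalk protein *Rplp1* at 776, *Rpl8* at 491, *Rps9* at 405 and *Rps14* at 386. Among the lowest were *Rps6* at 0.64, *Rps23* at 1.37, *Rpl36a* at 1.39 and *Rps7* at 2.13. *Rps6*, whose protein is the classical target of S6 kinase, had 4 to 37 counts per M0 library, while *Rps9* in the same subunit had a mean of 9165. In counts, the 5 most abundant genes (among them *Rpl4*, *Rps3*, *Rpl8* and *Rplp1*) held 38.6% of all counts of the 71, and the 13 genes averaging under 100 counts held 0.397%.

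The level of a gene went with how much of its sequence is its own. Of the 50-base words of the *Rpl8* mRNA, 92.1% were found in no other annotated gene, against 15.4% for *Rps6*, 14.5% for *Rpl36a* and 1.4% for *Rps27*. For the 10 genes whose mRNA shares words with at most 2 annotated pseudogenes, the mean count ranged from 1201 to 16720 (median 7218). For the 32 genes with 10 or more such pseudogenes it ranged from 19.9 to 5669 (median 397). Across the 71 genes, which share the same libraries, Spearman's rho between the percentage of unique words and the level per kb was 0.54. It was -0.49 for the number of pseudogenes. Both values rest on 1 annotated mRNA per gene, the longest being those of *Rps15a* (5130 bases) and *Rps20* (3706 bases). Whether these forms are the ones expressed was not tested. The rule by which reads with several matches were counted is not given in the sources used here, and its part in these levels was not tested. The 1017 pseudogenes concerned have 34 entries in the count table, holding 0.0006% to 0.0012% of a library's counts.

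**Figure D1:**
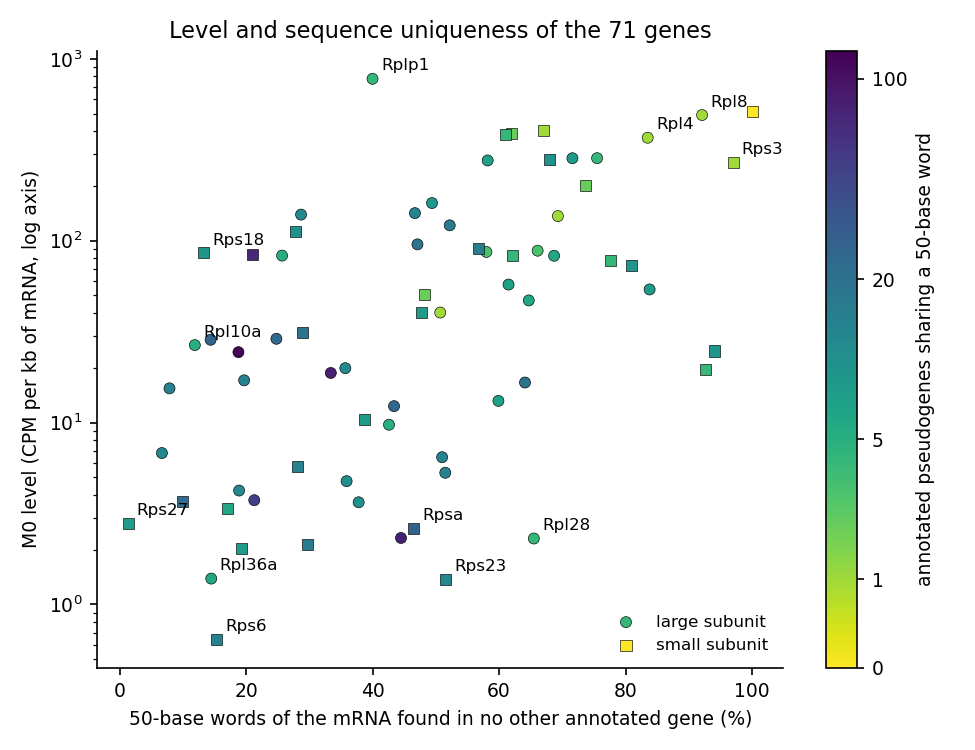
Level of each of the 71 genes in M0 (mean of 15 libraries, TMM-scaled CPM per kb of mRNA, log axis) against the percentage of 50-base words of its mRNA found in no other annotated gene. Circles are large and squares small subunit genes, and colour gives the number of annotated pseudogenes sharing a word. *Rpl8* (92.1% unique) sits at 491 and *Rps6* (15.4%) at 0.64.

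The same symbols occur for 8 genes of the count table that are absent from the CPM table. *Rpl19*, *Rpl23a*, *Rpl24*, *Rpl38*, *Rps16* and *Rps29*, which encode regular subunits of the ribosome, averaged 7.29 to 18.2 counts per library, and their mRNAs share words with 5 to 28 annotated pseudogenes. The tissue-restricted paralogues *Rpl3l* and *Rpl39l*, whose mRNAs share no words with any other gene, averaged 2.67 and 7.96 counts. Levels among the 71 therefore compare reads assigned to each gene in these tables. Comparisons between polarizations are made within a gene, on the same assigned reads. Which part of a gene those reads came from was not tested.

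The share of counts in the 71 genes was highest in M2 and lowest in M1. In M0 it ranged from 0.569% to 0.683% with a median of 0.633% (mean 0.625% ± 0.038, SD, n = 15). In M1 it ranged from 0.414% to 0.634% with a median of 0.512% (mean 0.520% ± 0.051, SD, n = 15), and in M2 from 0.690% to 0.841% with a median of 0.761% (mean 0.763% ± 0.033, SD, n = 15). Every M2 library lay above every M0 and M1 library, whereas M1 and M0 overlapped. Within a mouse the share was higher in M2 than in M0 in 15 of 15 mice and lower in M1 than in M0 in 14 of 15. In bulk RNA, a change of the mRNA per cell and a change of the cells present cannot be told apart.

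**Figure D2:**
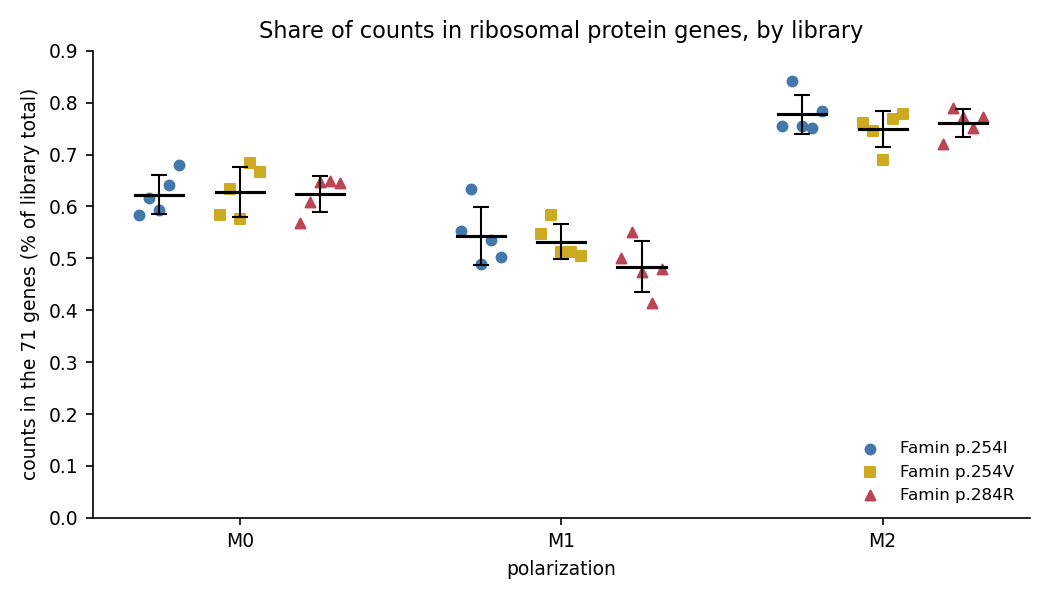
Percentage of each library's counts in the 71 ribosomal protein genes, by polarization and genotype. Points are libraries, in order of replicate number within a group, and bars are means ± SD of 5 libraries. The M2 libraries (0.690% to 0.841%) do not overlap those of M0 (0.569% to 0.683%), and the lowest library is a *Famin* p.284R M1 library at 0.414%.

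The size of the difference in M1 varied with the replicate number that mice of the 3 genotypes have in common. The mean difference of M1 from M0 was -0.0453 percentage points for mice numbered 1 and -0.0303 for those numbered 2. It was -0.114 for number 3, -0.171 for number 4 and -0.168 for number 5 (3 mice each). *Famin* p.254I mouse 2 was the one with a higher share in M1 than in M0, by 0.0171 percentage points. In M2 the mean difference from M0 was positive for every number, from 0.0999 points for number 4 to 0.173 for number 2. The labels do not say what the number means, and its part in the size of the change was not tested.

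Gene by gene, IL-4 polarization raised most of the ribosomal proteins. In M2 against M0, 65 of 71 were called higher and 0 lower (edgeR's quasi-likelihood test, Benjamini-Hochberg adjusted p under 0.05 over 12905 genes), against 36.8% of all genes tested called higher and 39.6% lower. All 71 log2 fold changes were positive, and their median was 0.41, against -0.03 over all genes. For 26 of the 71, every M2 library was above every M0 library, against 13.6% of all genes. No gene was lower at an unadjusted p under 0.05 either (0 of 71), and DESeq2 and limma-voom also called 0 lower.

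M1 went mostly the other way, by less. In M1 against M0, 42 of 71 were called lower and 5 higher, against 40.3% and 37% of all genes tested, and the median log2 fold change was -0.19 against -0.03 over all genes. In 4 of the 71 (*Rpl10a*, *Rpl12*, *Rpl27a*, *Rpl31*) every M1 library was below every M0 library, against 13.5% of all genes. The reverse was true of 0 of the 71, against 15.2% of all genes. With total counts in place of TMM the median of all genes moved to -0.13 and that of the 71 to -0.30, so the distance between them stayed near -0.17. M1 against M2, which shares its libraries with both comparisons, had 66 of the 71 called lower and 2 higher (among them *Rps20*), against 40.1% and 39% of all genes.

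**Figure D3:**
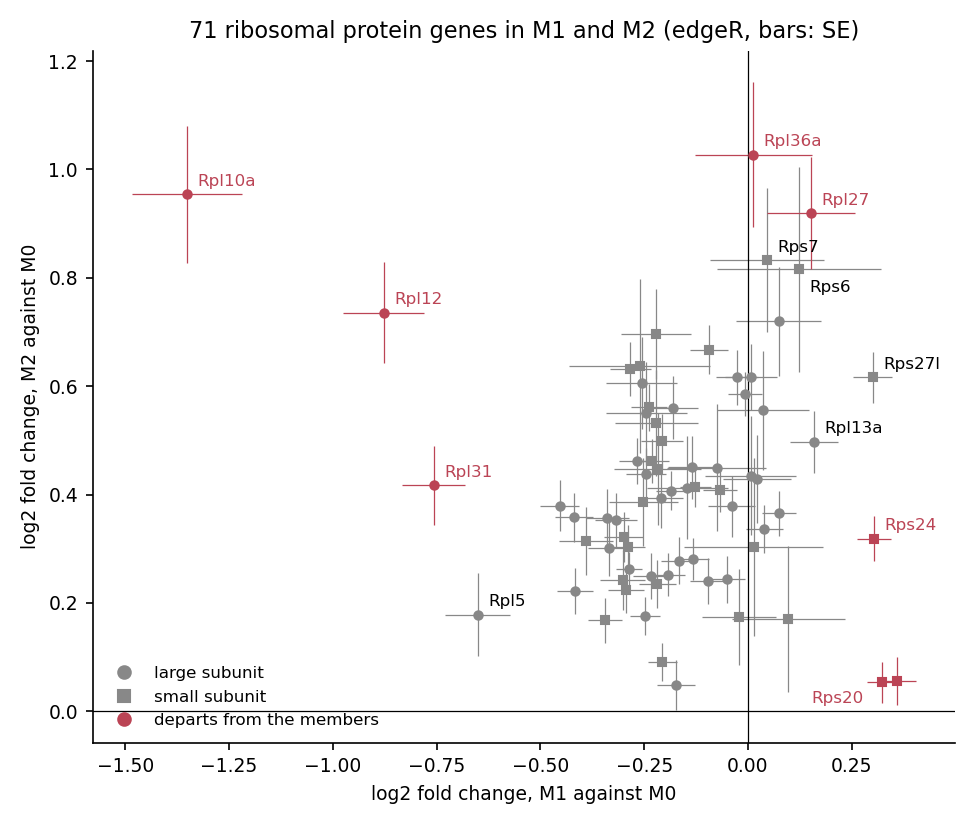
Log2 fold change in M1 (x axis) and M2 (y axis) against M0 for the 71 genes, with SE bars from edgeR. Circles are large and squares small subunit genes, and red marks those that departed from the rest on the relative scale in any comparison. All points lie above 0 in M2, *Rpl10a* stands apart at -1.35 in M1 and 0.95 in M2, and *Rps20* lies near 0 in M2 and above 0 in M1.

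Which genes departed from the rest was read from a relative scale, on which library sizes were replaced by the geometric mean of 50 of these genes (those with at least 100 counts in every library), so that a gene moving with the others scores 0. In M1 against M0, 18 of 71 were higher and 21 lower relative to the others, against 49.6% and 28.3% of all genes. In M2 against M0, 20 were higher and 20 lower, against 13.9% and 69% of all genes. In M1 against M2, 21 were higher and 25 lower, against 71.7% and 16.6%. The scale is centred on 50 of the 71 genes, so a near balance of higher and lower among them follows from it. The shares of all genes on it carry the shift of the group. A departure of at least 0.5 on the log2 scale was reached by 8 genes in all.

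*Rpl10a*, a large subunit protein at the L1 stalk, departed the most. Its TMM-scaled CPM was 12.4 to 29.5 (median 17.8) in M0, 5.55 to 9.60 (median 7.61) in M1 and 22.5 to 47.6 (median 38.8) in M2. All M1 libraries were below all M0 libraries, M2 overlapped M0 at its low end, and within a mouse M1 was lower and M2 higher in 15 of 15. On the log2 scale it changed by -1.35 ± 0.13 (SE, adjusted p = 5.8e-12) in M1 and 0.95 ± 0.13 (adjusted p = 1.2e-08) in M2, or -1.16 and 0.59 relative to the other members. The gene lies at chr17:28328471-28331033 on the plus strand, and 11.9% of the words of its mRNA are found nowhere else. Of its 255 coding words examined within single exons, 255 were shared with other genes. Over all its annotated exon sequence, 79.2% of words were unique. Whether its reads came from the coding mRNA was not tested.

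*Rpl12*, part of the base of the ribosomal stalk, and *Rpl31*, near the peptide exit, had the same order of levels. *Rpl12* was at 5.89 to 10.9 CPM (median 8.26) in M0, 2.96 to 5.53 (median 4.39) in M1 and 9.31 to 17.8 (median 13.9) in M2. On the log2 scale *Rpl12* changed by -0.88 ± 0.10 (SE, adjusted p = 1.1e-10) in M1 and 0.74 ± 0.09 (adjusted p = 3.7e-09) in M2. *Rpl31* was at 6.05 to 9.36 CPM (median 7.94) in M0, 3.22 to 6.01 (median 4.55) in M1 and 9.11 to 11.9 (median 10.3) in M2. For both, the M1 and M0 libraries did not overlap, and every mouse was lower in M1 and higher in M2. *Rpl31* changed by -0.76 ± 0.08 (SE, adjusted p = 7.0e-12) in M1 and by 0.42 ± 0.07 (adjusted p = 2.7e-06) in M2.

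Annotated genes on the opposite strand overlap these 3, and use of strand in the counting is not stated. *Rpl12* overlaps *Lrsam1*, whose log2 fold change was 0.02 in M1 and -0.66 in M2. *Rpl31* overlaps *Tbc1d8*, at -0.18 in M1 and -1.01 in M2. In M2 both neighbours were called lower. In M1, where *Rpl12* and *Rpl31* were lower, neither neighbour was called (edgeR, adjusted p = 0.64 for *Lrsam1* and 0.061 for *Tbc1d8*). The part of the overlap in the counts was not tested. The antisense transcript over *Rpl10a* has no entry in the count table.

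**Figure D4:**
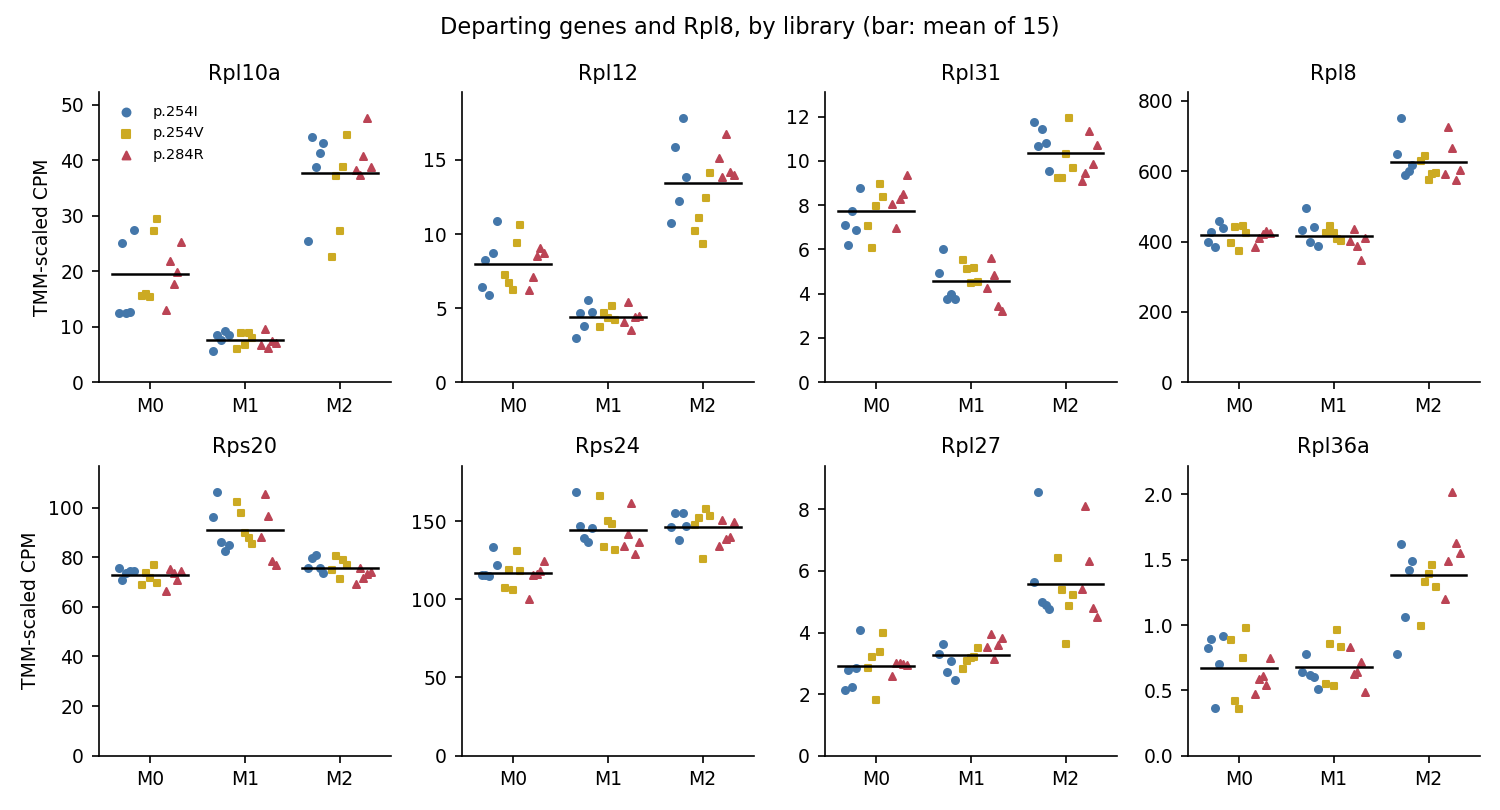
TMM-scaled CPM in each library for 7 genes that departed from the rest and for *Rpl8*, by polarization and genotype (linear axes from 0, bars are means of 15 libraries). *Rpl10a*, *Rpl12* and *Rpl31* fall in M1 and rise in M2, the mean of *Rps20* is highest in M1, that of *Rps24* is above M0 in M1 and M2, and *Rpl8*, *Rpl27* and *Rpl36a* are higher in M2 with M0 and M1 overlapping.

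*Rps20*, a small subunit protein, was called higher in M1 and was not called in M2. It was at 66.5 to 77.0 CPM (median 73.7) in M0, 76.8 to 106 (median 88.1) in M1 and 69.2 to 80.9 (median 75.6) in M2. Its M1 libraries overlapped M0 only at the lowest M1 value. It rose by 0.32 ± 0.04 on the log2 scale in M1 (SE, adjusted p = 5.4e-10), while M2 gave 0.05 ± 0.04 (adjusted p = 0.20).

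*Rps24* (0.30 ± 0.04), *Rps27l* (0.30 ± 0.05) and *Rpl13a* (0.16 ± 0.06) were also higher in M1 (log2 fold change ± SE, adjusted p = 1.8e-08, 3.2e-07 and 0.012). All 3 were higher in M2 as well, by 0.32, 0.62 and 0.50. *Rps27l* is a p53-responsive paralogue of *Rps27*, and *Rpl13a* is released from the ribosome in interferon-γ-treated myeloid cells to act in translational silencing. *Rpl13a* (chr7:45125558-45128761, minus strand) hosts small nucleolar RNAs, and 35.4% of its exon length lies under other annotated genes of the same strand. The call for *Rpl13a* in M1 was lost with total counts (0.05).

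*Rpl27* and *Rpl36a* departed upward in M2. *Rpl27* was at 1.80 to 4.07 CPM (median 2.94) in M0, 2.46 to 3.95 (median 3.19) in M1 and 3.64 to 8.57 (median 5.21) in M2, and it was higher in M2 in 15 of 15 mice. *Rpl36a* was at 0.361 to 0.975 CPM (median 0.704) in M0 and 0.775 to 2.02 (median 1.42) in M2, or 8 to 47 and 21 to 56 counts. It was higher in M2 in 14 of 15 mice. The groups overlapped for both genes. The log2 fold changes in M2 were 0.92 ± 0.10 (SE, adjusted p = 2.4e-10) for *Rpl27* and 1.03 ± 0.13 (adjusted p = 7.6e-09) for *Rpl36a*. *Rps7* (0.83) and *Rps6* (0.82) followed them, also at low counts, and *Rps6* rose from 0.180 to 1.02 CPM in M0 to 0.566 to 1.54 in M2.

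The 6 genes not called in M2, among them *Rps20*, *Rps27*, *Rps12* and *Rps13*, had log2 fold changes from 0.05 to 0.30. In M1, *Rpl5* (-0.65 ± 0.08, SE, adjusted p = 1.0e-09) and *Rpl32* (-0.45 ± 0.05, adjusted p = 2.6e-11) came next after the 3 genes named above. Inside the departure threshold, close to it, lay *Rpl31* in M1 (-0.59) and *Rpl27* in M2 (0.54), and just outside it *Rps20* (0.50, unrounded below the threshold), *Rps24* (0.48) and *Rps27l* (0.48) in M1. *Rps20* and *Rps24* passed it in M1 against M2, at 0.82 and 0.54. In that comparison *Rps24* was not called on the ordinary scale (-0.02, adjusted p = 0.75). *Rps25* was among the 5 most negative there, at -0.92, with *Rpl36a* at -1.01.

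By role, the 3 proteins of the acidic stalk that recruits translation factors moved together. *Rplp0* was at 349 to 412 CPM (median 379) in M0, 230 to 418 (median 284) in M1 and 443 to 546 (median 477) in M2. On the log2 scale *Rplp0* changed by -0.34 ± 0.05 in M1 and 0.36 ± 0.05 in M2 (SE, adjusted p = 2.2e-07 and 8.2e-08). *Rplp1* changed by -0.21 and 0.39 and *Rplp2* by -0.13 and 0.45. For all 3, M2 and M0 libraries did not overlap while M1 and M0 did, and the *Rplp2* call in M1 (adjusted p = 0.037) was lost in 14 of the alternatives.

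*Rpl5* and *Rpl11* join the 5S rRNA in a particle that can bind MDM2 and stabilize p53. *Rpl5* was at 8.70 to 13.1 CPM (median 10.8) in M0, 4.77 to 8.73 (median 6.49) in M1 and 10.0 to 14.5 (median 12.3) in M2. M1 was lower in 15 of 15 mice. Its change in M2 was 0.18 ± 0.08 (SE, adjusted p = 0.034), a call lost in 7 of the alternatives. *Rpl11* was not called in M1 (-0.08 ± 0.12, SE) and rose by 0.45 ± 0.12 in M2.

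The core proteins *Rpl8* and *Rpl3*, which line the peptidyl transferase region, were not called in M1 (-0.01 ± 0.04 and -0.04 ± 0.06, SE). With total counts in place of TMM both were called lower in M1 (-0.11 and -0.15). They rose in M2 by 0.59 ± 0.04 and 0.38 ± 0.06. *Rpl8*, among the most abundant and with 92.1% of its words unique, was at 374 to 458 CPM (median 424) in M0, 348 to 495 (median 409) in M1 and 574 to 750 (median 605) in M2. M2 stood clear of both other groups. *Rpl10*, a late-joining protein, was likewise not called in M1 (0.01) and rose by 0.44 in M2, whereas *Rpl39* at the peptide exit fell by 0.32 in M1 and rose by 0.35 in M2.

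Of the genes with roles beyond the ribosome, *Rps3*, a protein also studied in DNA repair and NF-κB signalling, fell by 0.13 in M1 and rose by 0.41 in M2. *Rpsa*, the laminin receptor precursor, fell by 0.25 and rose by 0.39. *Rps27a*, made as a ubiquitin fusion, was at -0.22 ± 0.11 in M1 (SE, adjusted p = 0.058, called lower in 8 of the alternatives) and rose by 0.45 in M2. *Rps4x*, the X-linked gene, fell by 0.29 in M1 and rose by 0.22 in M2. Among genes mutated in Diamond-Blackfan anaemia, all 4 taken (*Rps19*, *Rps26*, *Rps10*, *Rps24*) rose in M2, by 0.46, 0.56, 0.41 and 0.32. In M1, *Rps19* (-0.23) and *Rps26* (-0.24) fell, *Rps24* rose and *Rps10* was at -0.07 (adjusted p = 0.13, called lower in 2 of the alternatives).

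Ribosome assembly factors were also higher in M2. All 21 ribosome assembly factors tested were called higher in M2 against M0, with a median log2 fold change of 0.89, where 36.8% of all genes were called higher. The largest were those of *Dkc1* (1.35 ± 0.09, SE), the pseudouridine synthase of box H/ACA particles, *Grwd1* (1.12), *Tsr1* (1.02) and *Rpf2* (0.98). In M1, 10 of the 21 were higher and 5 lower, with a median of 0.12, beside 37% and 40.3% of all genes. The assembly factors *Bysl* (0.71), *Fbl* (0.65, the rRNA methyltransferase fibrillarin) and *Dkc1* (0.59) were higher in M1, whereas most ribosomal proteins were lower there.

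Of 11 genes of RNA polymerase I and its initiation factors, 9 were higher and 1 lower in M2 (median 0.34), and 6 were higher and 1 lower in M1 (median 0.16). The gene lower in M2 was *Taf1b* (-0.24). *Polr1e* had the largest change in M2 (0.88) and *Polr1c* in M1 (0.65). Of 16 elongation factors and other mRNAs of the TOP class, 9 were higher and 2 lower in M2, led by *Eef1g* (0.95), and 5 were higher and 5 lower in M1, where *Tpt1* fell by 0.71. The 7 ribosomal proteins outside the symbol rule were all higher in M2 (median 0.45, among them *Rpl36al* at 0.53), and 2 were higher and 2 lower in M1.

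*Myc*, a transcriptional activator of ribosome genes, moved in opposite directions in both polarizations. It was at 9.50 to 31.8 CPM (median 15.6) in M0, 2.59 to 7.65 (median 4.59) in M1 and 58.8 to 74.6 (median 68.1) in M2. The 3 groups did not overlap. On the log2 scale *Myc* changed by -1.86 ± 0.15 (SE, adjusted p = 3.6e-14) in M1 and 1.93 ± 0.14 (adjusted p = 1.9e-15) in M2. *Larp1*, which binds TOP mRNAs, rose in both, by 0.90 in M1 and 0.53 in M2. The mTORC1 component *Rptor* fell in both (-0.70 and -0.38), and *Tsc1*, an inhibitor of mTORC1, fell in M1 (-0.67) and rose in M2 (0.51). Of the 13 regulators tested, 6 were higher and 4 lower in M1, and 9 were higher and 2 lower in M2. Of all genes, 37% were called higher and 40.3% lower in M1, and 36.8% and 39.6% in M2, the shares against which the counts of each of these lists are read.

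**Figure D5:**
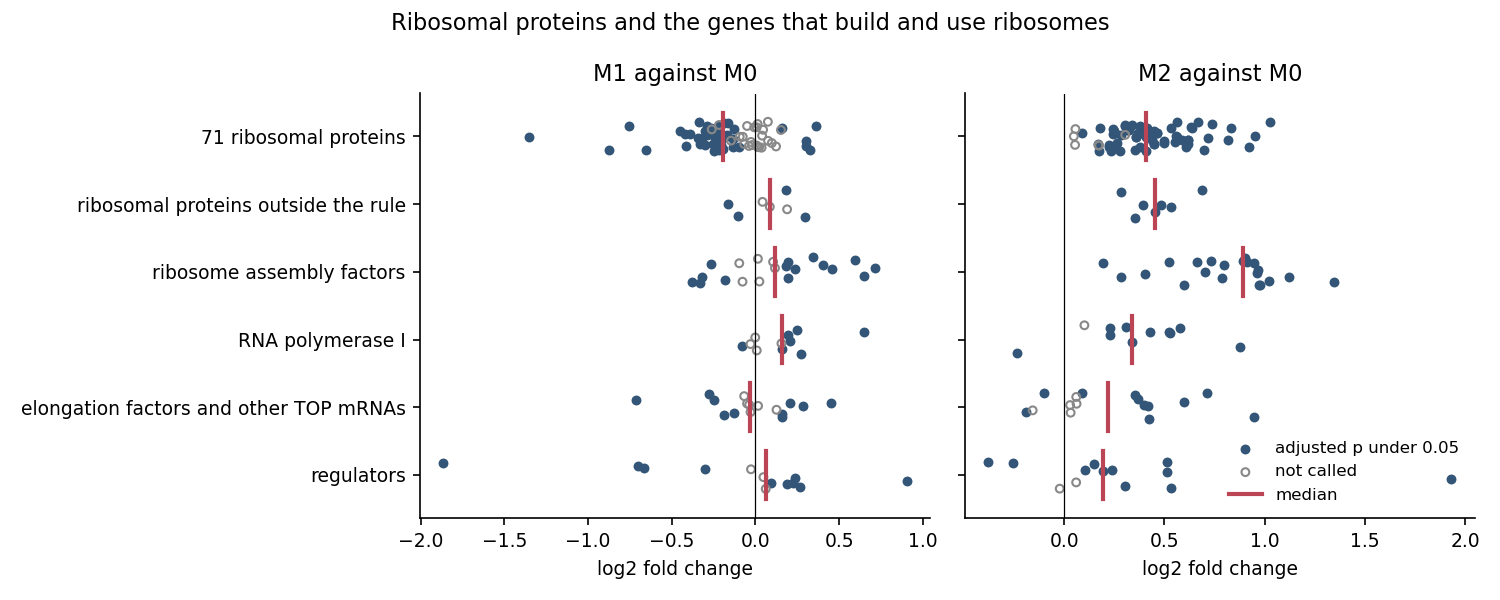
Log2 fold changes against M0 in M1 (left) and M2 (right) for the 71 ribosomal proteins and 5 lists of companion genes. Filled points have an adjusted p under 0.05 (edgeR) and red bars are medians. In M2 all 21 assembly factors are filled and above 0 (median 0.89), and the points farthest out among the regulators are *Myc*, at -1.86 in M1 and 1.93 in M2.

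No ribosomal protein was called between genotypes. Averaged over M0, M1 and M2, 0 of 71 were called in *Famin* p.284R against *Famin* p.254I (0.0155% of all genes), 0 in *Famin* p.254V against *Famin* p.254I (0.0155%) and 0 in *Famin* p.284R against *Famin* p.254V (0%). By edgeR, 8 of 71 had an unadjusted p under 0.05 in the first comparison, all lower, against 4.38% of all genes. In each of the other comparisons it was 1 of 71, beside 2.5% of all genes for p.254V against p.254I and 4.7% for p.284R against p.254V. The 8 became 0 without p.254I mouse 2 and 0 with counts summed per mouse, and 16 without p.254I mouse 3. DESeq2 and limma-voom also called 0. The smallest unadjusted p-values included those of *Rpl30* (-0.11 ± 0.04, SE, adjusted p = 0.97) and *Rps21* (-0.13 ± 0.05). For p.254V they were those of *Rps12* (-0.18 ± 0.09), *Rps15a* (-0.08 ± 0.04) and *Rps27l* (-0.07 ± 0.05). Between p.284R and p.254V they were those of *Rpl17* (0.22 ± 0.08), *Rps9* (-0.07 ± 0.04) and *Rpl26* (-0.07 ± 0.04).

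Within single polarizations the genotype differences were likewise not called. Among these comparisons with p.254I, the median over the 71 was largest in size for p.284R in M1. In M1, 59 of 71 log2 fold changes of p.284R against p.254I were negative, against 50.9% of all genes, with a median of -0.12. The smallest adjusted p was 0.40 (*Rps21*, -0.27 ± 0.10, SE). Of the 71, 17 had an unadjusted p under 0.05, all lower, where 6.7% of all genes had one and 3.08% were lower. At adjusted p under 0.05, 0.263% of all genes were called. The share of counts in M1 was 0.414% to 0.550% in p.284R, 0.490% to 0.634% in p.254I and 0.505% to 0.584% in p.254V, so the genotypes overlapped. Between mice with the same number, the M1 share was lower in p.284R than in p.254I for 5 of 5 numbers, with a mean difference of -0.0594 percentage points ± 0.0439 (SD). It was also lower than in p.254V for 5 of 5, with a mean difference of -0.0486 ± 0.0290, a comparison with the same p.284R libraries. In M0 the share was lower in p.284R than in p.254I for 3 of 5 numbers, and in M2 likewise for 3 of 5. These are given without a test.

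The size of the M1 difference, and the number of genes at an unadjusted p under 0.05, varied with single mice. Without p.284R mouse 4, whose M1 library had the lowest share, 2 of 71 had an unadjusted p under 0.05 and the median was -0.09. Without p.254I mouse 2, whose M1 library had the highest share, it was also 2 of 71, with a median of -0.07. It was 7 without p.254I mouse 1, 29 without p.254I mouse 3 and 30 without p.284R mouse 2. With the replicate number as a block it was 26, and with total counts 28, and in all of these fits 0 were called. The shares of all genes at an unadjusted p under 0.05 in these refits are not reported here. How far the changes in these counts are particular to the 71 therefore cannot be told. In the remaining within-polarization comparisons, 0 to 2 of 71 had an unadjusted p under 0.05. For p.284R it was 1 in M0 (1.08% of all genes) and 0 in M2 (1.15%). For p.254V it was 1 in M0 (1.79%), 0 in M1 (0.93%) and 2 in M2 (2.55%), so the shares lay near those of all genes. Negative log2 fold changes also prevailed for p.254V in M2, in 61 of 71 against 52.65% of all genes, with a median of -0.06. At the adjusted threshold, all genes called amounted to 0.00775% for p.284R in M2 and 0% for p.284R in M0 and for p.254V in M0, M1 and M2. The interactions, which test whether a genotype difference changes from M0 to M1 or M2, gave 0 called of 71 (0% of all genes), with 3 of 71 at an unadjusted p under 0.05 for p.284R in M1 (2.76% of all genes). In the others it was 1 of 71, beside 0.542% of all genes for p.284R in M2, 0.86% for p.254V in M1 and 1.29% for p.254V in M2.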

How the data were processed

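RNA of BMDMs from 15 mice was sequenced as stranded single-end reads of 50 bases. Per the labels, FastQC, Trim Galore, HISAT2, limma and the build mm10 were used, while the series text names other trimming and alignment tools, and the counting tool, its annotation and its handling of strand and of reads with several matches are not given in the sources used here. The authors deposited counts per Ensembl gene without normalization for 29307 genes and a CPM table of 11900 genes, scaled to the total over those genes. Whole reads were recovered from 100% of the CPM values (within 0.01 reads), and edgeR on them called 49 of the 71 genes in M1 against M0, 65 in M2 against M0 and 68 in M1 against M2.

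The counts were fitted with edgeR 4.0.16 under R 4.3.3 (filterByExpr over the 9 groups, TMM, robust glmQLFit, no block). Polarizations were averaged over genotypes and genotypes over polarizations. Log2 fold changes are edgeR's, whose prior count shrinks those of low genes, and SEs were derived from the F statistics. P-values were adjusted over 12905 genes. limma 3.58.1 and DESeq2 1.42.0 were alternatives. The fits were tested on simulated counts. Libraries of 1 genotype with the same number come from the same mouse, and the main fit treats them as independent. Values per mouse are differences of log2(CPM + 0.5). Total counts of 17239009 to 43740283 per library make 1 read worth 0.0229 to 0.0580 CPM, so genes under 1 CPM carry counting error.

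Same-numbered libraries of the 3 genotypes deviated from their group means together in M0 and M1 (15 of 15 pairs with a correlation over 0.1) and in 13 of 15 pairs in M2, over 11151 genes averaging at least 1 CPM. Over the 71 genes alone it was 11 of 15 in M0, 12 of 15 in M1 and 13 of 15 in M2, with correlations from -0.38 to 0.78. No column of the tables was left unmapped. Lengths and words are those of 1 representative mRNA per gene of GENCODE M21.

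The genes and lists were chosen with earlier results of these data known. Genes named are the 5 called members with the largest change in each direction and polarization comparison, those departing by at least 0.5 on the relative scale, fixed role genes, the 5 highest and lowest per kb in M0, and for genotypes the 3 with the smallest p. *Rpl27a*, *Rps12*, *Rps13* and *Rps27* were named after their values were seen. Some genes that these rules name are counted but not reported here by name. *Rpl10l* and *Rps4l* of the role list are not analysed here. Alternatives were other scalings, filters and tools, the replicate number or the mouse as a block, only the libraries compared, sums over the cultures of a mouse, and leaving out each mouse in turn. The reads recovered from the CPM table were added after seeing the data.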

Additional observations from a re-analysis of the deposited data

Results flagged for a closer look

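In all, 90 groups of 5 libraries were examined for a single library far from the others. These were the share of counts and the levels of the 9 genes named for genotypes in each of the 9 groups. Of the 90, 2 stood out, which is below the rate of about 1 in 20 that chance gives. *Rps9* in *Famin* p.284R M1 replicate 4 was at 213 CPM, with the other 4 libraries at 249 to 259. The same library had the lowest share of counts in ribosomal proteins of all M1 libraries. *Rps15a* in *Famin* p.284R M0 replicate 4 was at 138 CPM, with the others at 122 to 126. Both libraries are of the same mouse, with *Rps9* low in its M1 library and *Rps15a* high in its M0 library.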

How the results depend on the processing

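The number of ribosomal proteins called stayed within 1.5 times its value under every alternative run. For M1 against M0 it was 44 to 54 under other scalings, filters and tools, 43 to 47 with a mouse left out, and 49 with either replicate block. For M2 against M0 the ranges were 62 to 66 and 64 to 67, and the paired fits gave 66. For M1 against M2 they were 65 to 68 and 67 to 68, with 69 for the block by number and 68 for the block by mouse. Relative to the other members the blocked counts were 41 to 43, 42 and 48 to 49. In the genotype and interaction comparisons 0 were called in every fit, blocked ones included, so the block changed no other call. Leaving the 10 most abundant other genes of each library out of the total moved the mean share to 0.707% in M0 and 0.861% in M2, beyond 1 SD. In M1 it was 0.570%. Leaving out a mouse gave 0.621% to 0.629%, 0.511% to 0.527% and 0.757% to 0.768%. Values of single named genes were counted once for each gene, comparison and alternative. Of these, 3953 kept their status, 34 lost and 33 gained a call, and none that was called changed sign. *Rplp2* in M1 against M0 made up 14 of the losses. The cause was not tested. Counting error bears most on *Rps6*, *Rpl36a* and the other genes averaging under 100 counts. The source of their low counts was not tested.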
